A study of Homo sapiens with 2 samples.

Results

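The genes described here are 10 of iron uptake, mitochondrial import, storage and their regulation, out of 25702 genes in the count files. They were given by name (TFRC, TFR2, STEAP3, SLC11A2, SLC25A37, ABCB10, FTH1, FTL, ACO1 and IREB2) and were each matched to 1 Entrez gene through the symbol in the deposited comparison table. All 10 were measured, meaning that they reached 1 CPM (1 count for each 1e6 scaled counts) in at least 1 library, as did 12536 genes in all. RNA was sequenced from K562, a human erythroid leukemia line that carries the BCR-ABL1 fusion, grown asynchronously in RPMI medium with serum. One group received 1 µM cabozantinib (XL184), a multikinase inhibitor whose targets include MET and the VEGF receptors, for 48 h, and the control received its solvent DMSO for the same time. With 1 library per group there is no replicate check, the conditions could not be tested, and intervals cover counting error only.

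Iron reaches erythroid cells bound to transferrin, which binds the transferrin receptor at the surface and is taken into endosomes. There the iron is released by acid, reduced by a STEAP ferrireductase and carried into the cytosol by the divalent metal transporter, after which mitoferrin takes it into mitochondria for heme and iron-sulfur clusters and ferritin stores the surplus. The iron regulatory proteins, encoded by ACO1 and IREB2, bind iron-responsive elements, short RNA hairpins. When iron is scarce, this binding protects the TFRC transcript from decay through its 3′ UTR and blocks translation of the ferritin transcripts through their 5′ UTRs, so that ferritin regulation of this kind is not read from transcript counts.

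These hairpins are the feature that TFRC and both ferritin genes are known to share, and they are shown because the 3 genes differed in their response. GENCODE 29 transcripts were searched on the transcribed strand for a window of 27 bases, made of 5 lower-stem bases, an unpaired C, 5 upper-stem bases, the loop CAGTGN or CAGAGN of 6 bases, and the other strand of both stem parts. All 5 upper pairs and at least 3 of 5 lower pairs had to form, G-T pairs included. GENCODE's transcript 201 of TFRC held 5 such windows between its bases 3339 and 3931, all in the 3′ UTR, and FTH1 and FTL held 1 each in the 5′ UTR. Capitals mark the loop, letters run 5′ to 3′ with T for U, and the numbers are first and last base in the GENCODE transcript.
TFRC 3339 to 3365: tttatcagtgaCAGAGTtcactataaa
TFRC 3389 to 3415: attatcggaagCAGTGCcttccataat
TFRC 3793 to 3819: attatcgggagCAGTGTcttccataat
TFRC 3858 to 3884: tgtatcggagaCAGTGAtctccatatg
TFRC 3905 to 3931: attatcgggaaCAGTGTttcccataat
FTH1 60 to 86: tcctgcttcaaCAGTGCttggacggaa
FTL 36 to 62: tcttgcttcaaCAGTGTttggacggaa

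Each TFRC window formed all 5 lower pairs, whereas those of FTH1 and FTL formed 4. The FTH1 and FTL windows were identical at 25 of 27 bases and differed by C3T and C17T, with FTH1 first and positions counted from the 5′ end of the window. Of 19669 genes with protein-coding transcripts, 79 (0.402%) held the pattern with the loop CAGTGN and 99 (0.503%) with CAGAGN. The second loop was included because the first TFRC element is known to carry it. STEAP3 held 1 window with the CAGAGN loop in its 3′ UTR, at bases 2035 to 2061, and a match is no evidence of a working element. None of the 18 protein-coding transcripts of SLC11A2 matched, although one of its isoforms is known to carry an element with an extra unpaired base, which this pattern does not allow.

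**Figure D1:**
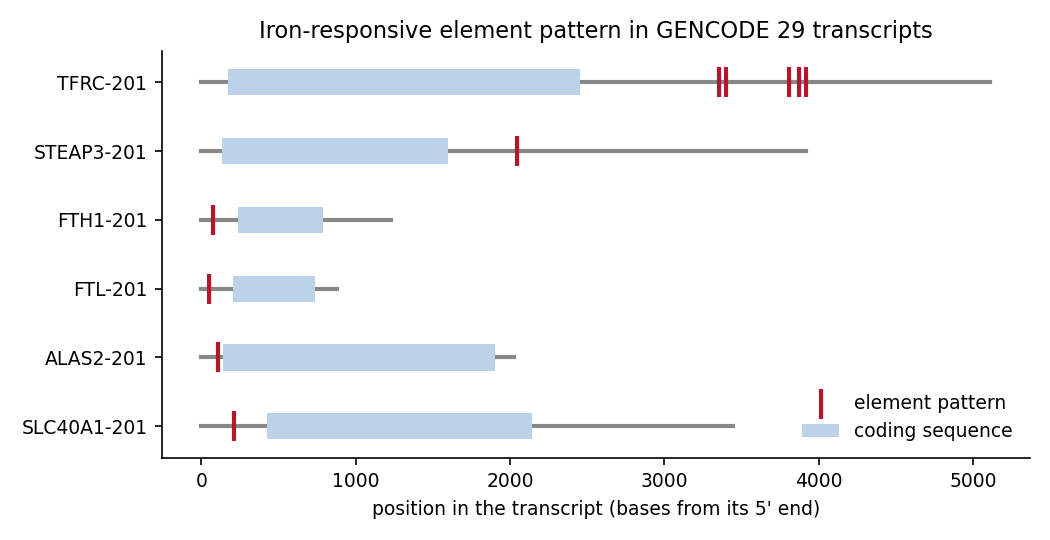
Position of the iron-responsive element pattern (red ticks) in 6 GENCODE 29 transcripts, in bases from the 5′ end, with the coding sequence as a blue bar and UTRs as gray lines. TFRC holds 5 windows after its coding sequence, and FTH1, FTL, ALAS2 and SLC40A1 hold 1 each before theirs.

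With cabozantinib, 5 of the 10 genes were higher by at least 1.5-fold with a counting interval that excluded no change, and 0 were lower. Over all measured genes 8.15% were higher and 12.3% lower by this rule. The higher genes were TFRC, STEAP3, SLC11A2, SLC25A37 and ABCB10, which act in uptake, reduction, transport and mitochondrial import. FTH1, FTL, ACO1, IREB2 and TFR2 stayed inside 1.5-fold. The median log2 ratio of the 10 was 0.57, against 0.01 for all measured genes. At 2-fold, 3 genes were higher and 0 lower, where 2.71% of measured genes were higher and 5.76% lower.

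**Figure D2:**
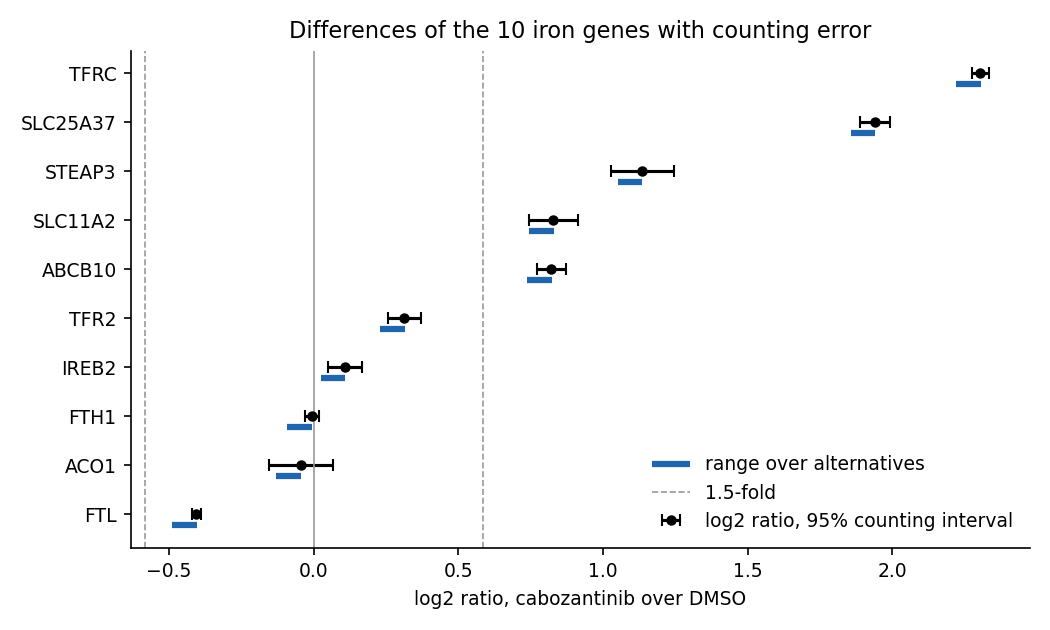
Log2 ratio of each gene, cabozantinib over DMSO (black points, 95% counting interval), and its range over other scalings, a larger pseudocount and the deposited fold (blue bars). TFRC lies at 2.31 and FTL at -0.41, and dashed lines mark 1.5-fold.

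TFRC (Entrez 7037), the transferrin receptor that brings in nearly all iron of erythroid cells, has 19 exons in the deposited annotation and lies on the minus strand of hg19 chromosome 3, 195776155 to 195809032. Its count was 11506 in DMSO and 54665 with cabozantinib, or 447 and 2207 CPM. It was 4.94-fold higher (95% counting interval 4.84 to 5.04), and it ranked 39 of 12536 measured genes by log2 ratio. By cabozantinib CPM minus DMSO CPM, ranked from the largest rise, it was 8 of 12536, and falls of any size rank below it. TFRC took 0.0460% of all counts in DMSO and 0.214% with cabozantinib.

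TFR2 (Entrez 7036; chromosome 7, 100218039 to 100239173), the second transferrin receptor, binds transferrin more weakly and is known in erythroid cells as a partner of the erythropoietin receptor. Its count went from 4616 to 5513, or from 179 to 223 CPM. It was 1.24-fold higher (1.19 to 1.29), inside the 1.5-fold limit. Per length, TFRC stood at 1.36 times the level of TFR2 in DMSO and 5.41 times with cabozantinib. The log2 ratio of TFRC exceeded that of TFR2 by 1.99 (counting interval 1.93 to 2.06).

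The promoter of TFRC is shown because it is the gene with the highest log2 ratio of the 10. RefSeq's start lies just after the sequence below, which is read from the RefSeq promoter table on GRCh38.p14, chr3:196082091-196082190, minus strand. This is another build than the hg19 positions of the counts. Capitals mark TATAAA, and G and C make up 73.0% of these 100 bases.
TFRC promoter: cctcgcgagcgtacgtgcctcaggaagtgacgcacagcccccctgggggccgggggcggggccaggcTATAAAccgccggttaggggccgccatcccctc

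The table held promoters for 7 of the 10 genes, with 4 for SLC11A2, 2 for IREB2 and 1 each for TFRC, STEAP3, ABCB10, FTL and ACO1. The 250 bases before each start were searched on both strands, for the printed letters only. The searches were for AGATAA, a form of the site of GATA1 and its relatives, and for CCACACCC, a form of the KLF1 site. The same bases were also searched for TTCNNNGAA, the site of STAT factors, and for CACGTG, the E box of MYC, none of which contains another. AGATAA stood in 1 of 4 SLC11A2 promoters and in no other promoter of these genes, against 9.17% of all 35116 promoters. CCACACCC (2.97% of all promoters), TTCNNNGAA (6.57%) and CACGTG (6.34%) stood in none of them. The search did not extend to other forms of these sites, to introns or to distant elements. So few promoters were not tested against the shares over all promoters. TATAAA, found in 10.7% of all promoters, was in that of TFRC, and CCAAT, found in 32.0%, in those of SLC11A2 and FTL.

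STEAP3 (Entrez 55240; chromosome 2, 119981384 to 120023228), the endosomal ferrireductase that turns ferric into ferrous iron, had 1000 counts in DMSO and 2112 with cabozantinib. That is 38.8 and 85.3 CPM, 2.20-fold higher (2.04 to 2.37). SLC11A2 (Entrez 4891; chromosome 12, 51373566 to 51422058), which encodes the divalent metal transporter, had 1749 and 2985 counts. Its level of 67.9 CPM in DMSO and 121 CPM with cabozantinib was 1.78-fold higher (1.67 to 1.88). The transcripts for both steps after the receptor were thus higher with cabozantinib, while reduction and transport themselves were not measured. The counts are per gene and do not separate the SLC11A2 isoforms with and without the known element.

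SLC25A37 (Entrez 51312; chromosome 8, 23386363 to 23430063), which encodes mitoferrin, the iron importer of the inner mitochondrial membrane in erythroid cells, had 3802 counts in DMSO and 14027 with cabozantinib. Its level went from 148 to 566 CPM and its log2 ratio of 1.94 (1.89 to 1.99) was second among the 10. Its close relative SLC25A28, the mitoferrin of other tissues, went from 12.1 to 15.2 CPM, a log2 ratio of 0.33 (0.11 to 0.55). Per length, SLC25A37 stood at 10.2 times SLC25A28 in DMSO and 31.0 times with cabozantinib.

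ABCB10 (Entrez 23456; chromosome 1, 229652329 to 229694442) is a transporter of the inner mitochondrial membrane that binds and stabilizes mitoferrin. It went from 5096 to 8655 counts, or from 198 to 349 CPM. It was 1.77-fold higher (1.71 to 1.83), a smaller difference than that of its partner, whose log2 ratio exceeded it by 1.12 (1.05 to 1.19).

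Ferritin, the storage shell, is built from heavy chains, which oxidize iron, and light chains, which help form the mineral core. FTH1 (Entrez 2495; chromosome 11, 61731757 to 61735132), the heavy chain, had 26559 counts in DMSO and 25407 with cabozantinib, or 1031 and 1026 CPM. Its log2 ratio was -0.01 (-0.03 to 0.02), the one nearest 0 of the 10. FTL (Entrez 2512; chromosome 19, 49468566 to 49470136), the light chain, had 72057 and 52290 counts, or 2796 and 2111 CPM. It was 1.32-fold lower (1.31 to 1.34), short of the 1.5-fold limit but outside counting error.

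Per length, the light chain transcript stood at 3.83 times the heavy chain in DMSO (3.77 to 3.88) and at 2.90 times with cabozantinib (2.86 to 2.95). The heavy chain's log2 ratio exceeded the light chain's by 0.40 (0.37 to 0.43). Ferritin genes have many pseudogene copies that can share reads. The deposited annotation held 1 heavy chain pseudogene with 15 and 14 counts and 1 light chain pseudogene with 0 in both, and adding them left both log2 ratios at -0.01 and -0.41. Reads placed on copies outside that annotation were not counted here. On the opposite strand, exons of BEST1 overlap 179 bases of FTH1, and BEST1 had 163 and 45 counts.

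ACO1 (Entrez 48; chromosome 9, 32384601 to 32450834) encodes iron regulatory protein 1, which is the cytosolic aconitase when it holds an iron-sulfur cluster. It had 1383 counts in DMSO and 1288 with cabozantinib, or 53.7 and 52.0 CPM, and its log2 ratio of -0.05 (-0.16 to 0.06) included no change. IREB2 (Entrez 3658; chromosome 15, 78730518 to 78793798) encodes iron regulatory protein 2, which is degraded when iron is plentiful. It had 4618 and 4784 counts, or 179 and 193 CPM, and a log2 ratio of 0.11 (0.05 to 0.17). Both genes are regulated largely at the protein level, which was not measured.

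Levels of different genes were compared as CPM per kilobase of gene length (RPKM), with exact Poisson 95% intervals. In DMSO the order was FTL (3211), FTH1 (839), TFRC (84.3), SLC25A37 (79.1), TFR2 (62.0), ABCB10 (51.3), IREB2 (28.1), ACO1 (15.1), SLC11A2 (9.97) and STEAP3 (8.92). With cabozantinib ABCB10 (90.6) stood above TFR2 (77.1), and STEAP3 (19.6) and SLC11A2 (17.7) stood above ACO1 (14.6). No 2 neighbors in either order had overlapping counting intervals, but the spread between cultures is not known. FTH1 stood at 9.94 times TFRC in DMSO, whereas with cabozantinib TFRC reached 417 against 835 for FTH1.

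**Figure D3:**
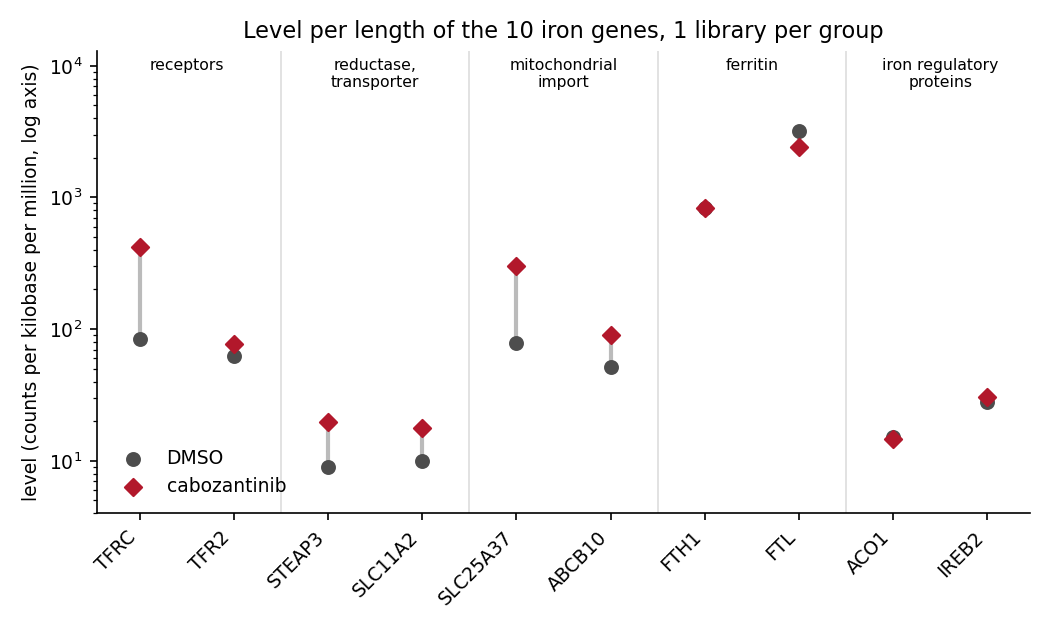
Level per length of each gene (RPKM, log axis) in DMSO (gray circles) and with cabozantinib (red diamonds), 1 library each, ordered by role. TFRC goes from 84.3 to 417 and SLC25A37 from 79.1 to 304, while the FTH1 symbols coincide.

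Among all measured genes, the 10 spread from the highest levels to the middle of the range, as the plot of all genes shows. By level per length, FTL ranked 11 in DMSO and 16 with cabozantinib, and FTH1 61 and 70. TFRC moved from rank 970 to 137 and SLC25A37 from 1044 to 180. The lowest of the 10 in DMSO were STEAP3 at rank 6797 and SLC11A2 at 6424 of 12536, which moved to 4230 and 4537, and ACO1 ranked 5020 and 5168. Of all measured genes, 79.5% were inside 1.5-fold or within counting error, with a 10th percentile of -0.70 and a 90th of 0.54 for the log2 ratio.

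**Figure D4:**
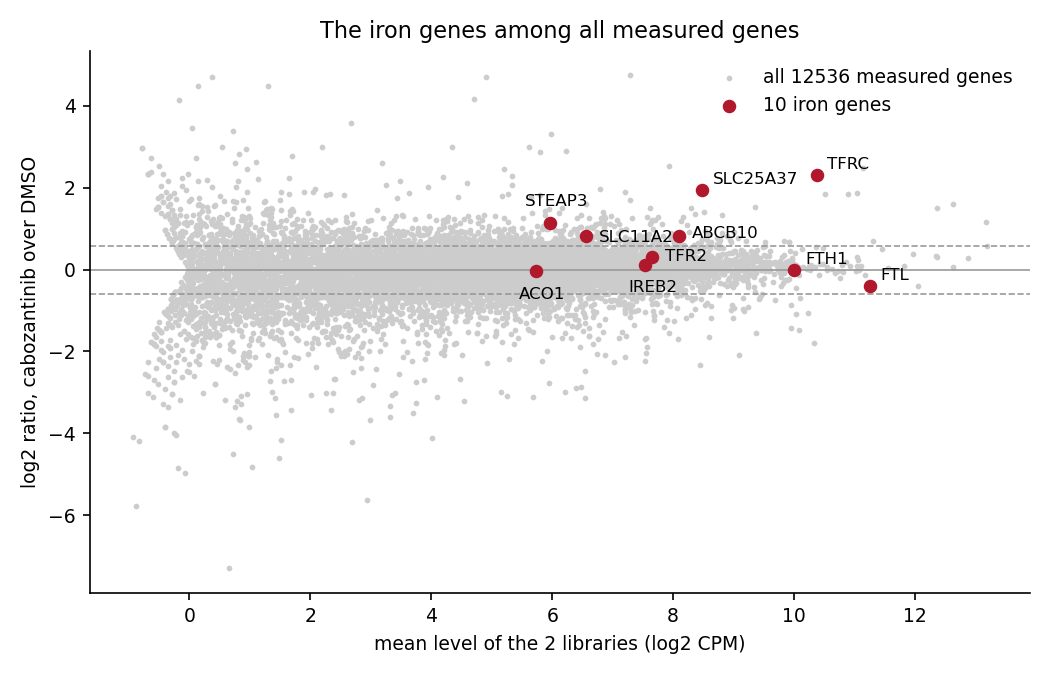
Log2 ratio against mean level (log2 CPM) for all 12536 measured genes (gray), with the 10 iron genes in red and 1.5-fold as dashed lines. TFRC (2.31) and SLC25A37 (1.94) lie above the bulk of genes of their level, and FTH1 lies at -0.01.

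The genes whose log2 ratio was nearest that of TFRC were sought among 2417 other protein-coding genes with a mean of at least 100 CPM, over 2 libraries. They were HBZ, the embryonic alpha-like globin (2.49), ALAS2, the erythroid enzyme that starts heme synthesis (2.54), and FAXDC2 (1.98).

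The authors' deposited table gave TFRC and SLC25A37 a posterior probability of differential expression of 1.00, and STEAP3 one of 0.999. In the authors' deposited table SLC11A2 had 0.758 and ABCB10 0.675, short of the 0.95 that 4.66% of its genes reached. The other 5 genes had at most 0.00638 in the authors' deposited table, the value of TFR2. These values come from the same 2 libraries and are no independent measurement.

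By the 1.5-fold rule 8.15% of all measured genes were higher and 12.3% lower, the shares to set beside each list count below. Of 12 measured partners of the receptor cycle, 2 were lower and 0 higher, and the median log2 ratio was -0.06. The other 10 lay between a log2 ratio of -0.36 for RAB5A, a GTPase of early endosomes, and one of 0.30 for SNX3, which sorts the receptor back to the surface. The lower genes were TF, which encodes transferrin itself, 1.67-fold lower (1.45 to 1.94) from 509 to 292 counts, and HFE. HFE, which competes with transferrin for the receptor, went from 27 to 4 counts and was 5.87-fold lower (2.26 to 25.5). With a pseudocount of 5 in place of 0.5 its log2 ratio moved from -2.55 to -1.77.

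Of 9 measured reductases, metal importers and their regulators, 2 were higher, 3 were lower and the median log2 ratio was -0.25. The shares over all measured genes were 8.15% higher and 12.3% lower. The zinc and iron importers went opposite ways, SLC39A8 1.81-fold higher (1.72 to 1.92) and SLC39A14 1.88-fold lower (1.79 to 1.98). The ferrireductase CYBRD1 was 1.53-fold higher (1.41 to 1.67). NDFIP1, an adaptor in the ubiquitination of the divalent metal transporter, was 1.54-fold lower (1.45 to 1.64). SLC11A1, the phagosomal relative of SLC11A2, had 52 and 24 counts, 2.06-fold lower (1.26 to 3.53), and is not counted with a filter of 5 CPM. Of the STEAP relatives, STEAP1 had 53 and 71 counts, a log2 ratio of 0.48 (-0.05 to 1.02). STEAP2 and STEAP4 were at 0 counts in both libraries, a result that allows up to 3 counts in each.

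Among 7 measured mitochondrial iron and porphyrin genes 3 were higher, 0 were lower and the median log2 ratio was 0.52. This and the list counts below stand beside 8.15% higher and 12.3% lower over all measured genes. FECH, which inserts iron into heme, was 2.57-fold higher (2.48 to 2.65), and ABCB6, a porphyrin transporter, 1.95-fold (1.82 to 2.10). FTMT, the mitochondrial ferritin, had 0 counts in both libraries. Ferritin handling genes had a median of 0.05, and of 5 measured 1 was lower, PCBP4 at 1.65-fold (1.27 to 2.16). NCOA4, the receptor for ferritin breakdown in lysosomes, had a log2 ratio of 0.05 (0.01 to 0.09). None of 8 genes for the turnover of the iron regulatory proteins passed 1.5-fold in either direction, and their median was 0.12. FBXL5, the iron-sensing subunit of the ligase for iron regulatory protein 2, had a log2 ratio of -0.11 (-0.25 to 0.04).

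In all, 10 genes known to carry iron-responsive elements were listed, 4 of them among the 10 described above. Of the list, 4 were higher, 1 was lower and the median log2 ratio was 0.00, where 8.15% of measured genes were higher and 12.3% lower. With the element in the 3′ UTR, TFRC (2.31) and SLC11A2 (0.83) were higher, while CDC14A had -0.03 (-0.13 to 0.07) and CDC42BPA -0.16 (-0.22 to -0.11). With the element in the 5′ UTR, ALAS2 (2.54) and the iron exporter SLC40A1 (0.74, 0.64 to 0.84) were higher. FTH1 (-0.01) and FTL (-0.41) were inside 1.5-fold. EPAS1, a hypoxia factor, went from 371 to 66 counts, 5.37-fold lower (4.15 to 7.13). Genes with either placement were thus found both past and inside the 1.5-fold limit. The pattern search found 8 of the 10, all but SLC11A2 and EPAS1. It matched 1 of 5 protein-coding transcripts of SLC40A1 and 1 of 8 of CDC14A. For CDC42BPA it matched 6 of 9, for ALAS2 8 of 9, for FTH1 7 of 8, for TFRC 3 of 4 and for FTL 1 of 1. Counts per gene do not separate transcripts with and without the element, so these ratios cannot be assigned to either kind.

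Of 4 measured iron and heme exporters and heme oxygenases, SLC40A1 was higher, 0 were lower, and the median log2 ratio was 0.27. For this list and the next ones, the shares over all measured genes were 8.15% higher and 12.3% lower. In the heme synthesis list 7 of 9 genes were higher, 0 were lower and the median was 1.27. The 3 highest by the lower bound of the interval were ALAS2, UROS (1.48) and FECH (1.36). In the iron-sulfur assembly list 1 of 14 was higher and 1 lower, the chaperone HSPA9 (-0.69, -0.71 to -0.66), with a median of -0.04. The lists were not tested against each other, and they share genes, FECH belonging to the mitochondrial iron list as well.

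**Figure D5:**
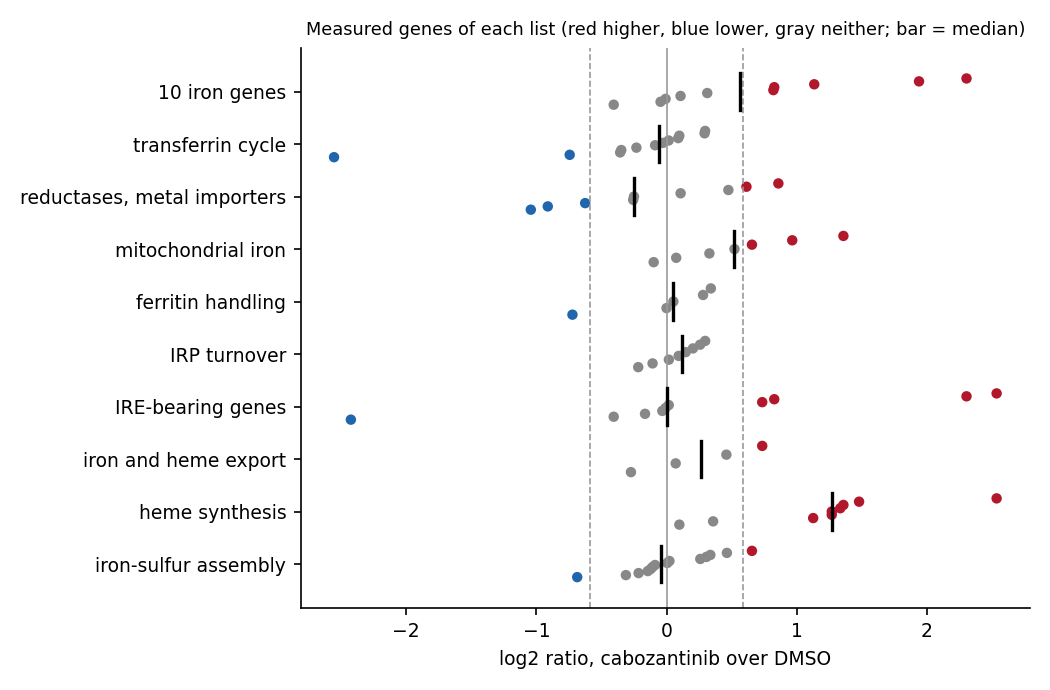
Log2 ratio of every measured gene in each list, cabozantinib over DMSO, with red points higher, blue points lower and gray points neither by the 1.5-fold rule, and the list median as a black bar. The heme synthesis median lies at 1.27, that of the 10 iron genes at 0.57 and that of iron-sulfur assembly at -0.04.

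Markers of the line were read in the same libraries, which held 25025243 counts in DMSO and 25505289 with cabozantinib. All 6 erythroid markers were measured, and their summed level was 4471 CPM in DMSO and 14847 with cabozantinib, with 5 of 6 higher. Shares over all measured genes were 8.15% higher and 12.3% lower. Of 5 granulocyte and monocyte markers 2 were measured, both lower, with summed levels of 40.9 and 9.57 CPM and MPO and ELANE at 0 counts in both. Of 4 lymphocyte markers 2 were measured, both lower, at summed levels of 11.1 and 3.07 CPM, with MS4A1 at 0 in both. The 4 fibroblast and epithelial markers summed to 288 and 213 CPM, with 2 lower. Of 4 macrophage and hepatocyte genes only TF was measured, and CD163 had 0 counts in both. The part of the erythroid marker difference in the iron gene differences was not tested, and in bulk RNA more cells of a type and more RNA per cell cannot be told apart.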

How the data were processed

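The 2 K562 libraries, 1 per group, were assigned by their treatment labels. Each deposited count file lists unnormalized read counts by Entrez gene. Alignment was done with Rsubread on hg19, per the file headers (hg19 and GRCh37 in the submitters' processing notes). The TruSeq libraries were stranded, per the labels' protocols. The counting's strand setting and handling of multi-mapping reads were not given in the sources used here. The authors' deposited table holds a fold ratio and a posterior probability, a score between 0 and 1. Its direction was read from the labelled counts, and its 4 value columns without a sample label were not used.

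Counts were scaled with edgeR 4.0.16 TMM factors in R 4.3.3 (1.03 for DMSO, 0.971 for cabozantinib). Log2 ratios used a pseudocount of 0.5. A gene was called higher or lower at 1.5-fold (log2 size 0.58) when no change lay outside the 95% counting interval of the ratio (Clopper-Pearson, exact). Intervals that compare 2 genes with each other used the Poisson standard error. Alternatives covered scaling (DESeq2 1.42.0 size factors, total counts, upper quartile, TMM without globins, mitochondrial genes and the 10 genes), pseudocount, filter, threshold, pseudogenes and the deposited fold.

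The genes and lists were chosen with earlier results of these data known. Named were all 10 genes, up to 3 each way per list past 1.5-fold, all listed element genes, relatives of the 10, and 3 genes nearest TFRC; some of these are not reported here. RAB5A, SNX3, NCOA4, FBXL5 and BEST1 fall outside this rule and were chosen after their values were seen. Calls were checked on counts simulated for 25702 genes with Poisson error only. Of those simulated for cabozantinib against DMSO at log2 changes of 0.8 and -0.8, 98.0% and 94.0% were called, with 0.493% of unchanged genes. The genes given a change were a small subset drawn only from well-counted genes. The called shares therefore do not cover genes with counts as low as those of HFE and SLC11A1. Python 3.11.15, numpy 2.4.6, scipy 1.17.1, pandas 2.3.3 and matplotlib 3.10.9 were used.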

Additional observations from a re-analysis of the deposited data

How the results depend on the processing

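No paired analysis was possible because each group holds 1 library, and no library could be left out. The 5 higher genes and 0 lower genes were the same counts under all 4 other scalings, a pseudocount of 5, no filter and a filter of 5 CPM. At 2-fold 3 were higher. Scaling by total counts shifted every log2 ratio by -0.08 and the median of the 10 from 0.57 to 0.48. At 2-fold the list counts were 1 lower in the transferrin cycle, 0 higher and 1 lower among reductases and importers, 1 higher for mitochondrial iron, 0 lower for ferritin handling, 2 higher among element genes, 0 higher for export, and 0 higher and 0 lower for iron-sulfur assembly. Those 2-fold counts stand beside 2.71% of all measured genes higher and 5.76% lower. With no filter 2 export genes were higher, and at 5 CPM 1 transferrin cycle gene and 2 reductases or importers were lower. Log2 ratios ranged from 2.22 to 2.31 for TFRC, 0.74 to 0.82 for ABCB10 and -0.49 to -0.40 for FTL. Counts were deep for the 10 genes (at least 1000 in each library), so replication, not depth, limits these comparisons. HFE rests on 27 and 4 counts.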
